A study of Mus musculus with 35 samples.

Results

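Gpr35, Il13ra2, Mcam, Sprr1a, Sprr2g and Tmem171 are 6 of the 24421 mouse genes counted in 35 RNA-seq libraries of immortalized mouse embryonic fibroblasts (MEFs). They were picked because their RNA stood well above control after infection with Ad-Cre, an adenovirus that carries the Cre recombinase. That difference is therefore the basis on which they were chosen, and it is described below with nothing read from its calls. Among the 453 genes called higher after Ad-Cre in cells with an empty vector (EV), Gpr35 ranked 10, Sprr2g 15, Il13ra2 34, Tmem171 118, Sprr1a 123 and Mcam 148 by fold change. These are positions within a selected list and no further evidence for the genes.

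All cells, controls included, had the genotype Nelfb flox/-, with a null and a floxed allele of Nelfb, the gene for subunit B of the negative elongation factor NELF, and Cre removes the floxed copy. The 20 population libraries were taken 7 days after infection from cells whose pLenti construct was EV, wild-type NELFB (WT), MT194, MT486 or DMT. Every construct received Ad-Cre or the control virus Ad-GFP in 2 replicates, so that EV-Cre denotes EV cells given Ad-Cre. MT194 is defective in binding NELFA/NELFC, MT486 is defective in binding NELFE, and DMT joins the changes of both. The other 15 libraries were from cells grown up from single clones after Ad-Cre, with 3 clones each of WT, MT194 and MT486 in pLenti and of WT(N48), labelled pBabe-WT-ATG-NELFB, and Δ-C60, a C-terminal truncation, in pBabe. Each of these clone libraries was counted as 1 clone, and no clone with EV or with Ad-GFP was analysed here. Reads on genes numbered 17969149 to 29080007 per population library and 18413284 to 27816723 per clone library.

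The 6 genes do not belong to a common pathway. Gpr35 is a G protein-coupled receptor for which the tryptophan metabolite kynurenic acid is a known agonist, and Il13ra2 is a cell surface receptor that binds interleukin-13 with high affinity and is known chiefly as a decoy for it. Mcam, also called CD146, is an adhesion molecule of the immunoglobulin family known from endothelium and pericytes. Sprr1a and Sprr2g belong to the small proline-rich proteins (SPRR), which are crosslinked into the cornified envelope of keratinocytes and whose genes lie together in the epidermal differentiation complex. Tmem171 is predicted to encode a transmembrane protein and is little studied. On the GRCm38 (mm10) annotation of GENCODE the genes lie at chr1:92950865-92986391 on the plus strand (Gpr35), chrX:147383476-147429192 on the minus strand (Il13ra2), chr9:44134469-44142727 on the plus strand (Mcam), chr3:92483952-92485895 on the minus strand (Sprr1a), chr3:92373915-92375229 on the plus strand (Sprr2g) and chr13:98686235-98694834 on the minus strand (Tmem171). Sprr2g is annotated as a polymorphic pseudogene in the reference strain, and the other 5 are protein coding.

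The sequences before the starts of these genes are given first, because the genes were all picked for a rise after Ad-Cre and because several SPRR promoters hold the same motif. RefSeq promoters on GRCm38.p6 matched 4 of the 6 genes, Gpr35 with 2 promoters. The letters of 4 motifs were searched for on both strands in the window of 250 bases before to 50 bases after each start. These were the AP-1 motif TGANTCA, bound by Fos and Jun proteins, the cAMP response element (CRE) TGACGTCA, the STAT6 motif TTCNNNNGAA and the TEAD motif GGAATG. No letters can match AP-1 and CRE at once. AP-1 letters occurred in the promoters of Sprr1a (first base at -146 and -116 from the start) and Il13ra2 (-193) and in the second promoter of Gpr35 (-184), against 7.81% of all 32851 promoters. Sprr1a held 2 such matches, as 0.46% of all promoters did. CRE letters occurred in the Mcam promoter alone among the 4 genes, at -29, against 1.79% of all promoters. TEAD letters occurred in Il13ra2 and in the second Gpr35 promoter, against 14.7%, and STAT6 letters in none of the 4 genes, against 6.95%. The 250 bases before the start are given for the 3 genes with AP-1 letters, which are in capitals, and they lie at chr3:92485882-92486131 on the minus strand (Sprr1a), chrX:147429193-147429442 on the minus strand (Il13ra2) and chr1:92978653-92978902 on the plus strand (the second Gpr35 promoter).
Sprr1a: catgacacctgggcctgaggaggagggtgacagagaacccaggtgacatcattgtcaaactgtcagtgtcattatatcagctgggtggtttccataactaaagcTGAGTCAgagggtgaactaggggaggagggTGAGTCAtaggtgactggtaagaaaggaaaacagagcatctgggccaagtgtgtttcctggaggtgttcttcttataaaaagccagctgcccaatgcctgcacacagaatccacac
Il13ra2: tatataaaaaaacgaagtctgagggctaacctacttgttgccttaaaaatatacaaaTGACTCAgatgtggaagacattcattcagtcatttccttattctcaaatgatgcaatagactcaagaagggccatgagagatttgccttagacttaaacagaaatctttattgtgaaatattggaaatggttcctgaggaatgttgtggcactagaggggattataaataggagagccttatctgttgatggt
Gpr35: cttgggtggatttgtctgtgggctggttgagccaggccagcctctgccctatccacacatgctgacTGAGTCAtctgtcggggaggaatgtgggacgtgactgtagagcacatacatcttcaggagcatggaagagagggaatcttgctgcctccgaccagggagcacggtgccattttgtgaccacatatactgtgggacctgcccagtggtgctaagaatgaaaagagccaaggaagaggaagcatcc
A match is a description of the letters and does not show a bound site.

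Nelfb itself was read first in every library, because it checks the labels. In the EV cells Nelfb stood at 7.97 and 5.46 CPM with Ad-Cre (replicates 1 and 2) against 46.1 and 39.5 CPM with Ad-GFP, where CPM is a gene's reads scaled to a common number of reads on the genes kept for testing, after TMM normalization. In the other populations with Ad-Cre it lay between 60.5 and 208 CPM, and reads of the locus and of the construct may both count here. The clones ranged from 10.3 to 247 CPM. Of the libraries labelled WT clones, clones 1 and 3 had 10.3 and 15.5 CPM of Nelfb and clone 2 had 109 CPM. Thus 2 of the 3 libraries labelled WT were far lower in Nelfb than the third. Whether they are labelled wrongly or express their construct weakly was not tested. The fibroblast identity was checked with 13 markers, of which Fn1 was the most abundant, with a mean of 14010 CPM in the populations. Their summed level was 22750 to 52480 CPM in the populations and 7884 to 27090 CPM in the clones, and Thy1 was under 0.2 CPM in every library.

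In the EV populations all 6 genes were higher with Ad-Cre than with Ad-GFP in each replicate, by log2 fold changes from 2.01 (Mcam) to 4.19 (Gpr35). Calls were made with edgeR's quasi-likelihood test across all 13805 genes kept and need an adjusted p below 0.05 as well as a change of more than 1 on the log2 scale. With this rule 6 of the 6 genes were called higher in EV, where 3.28% of all genes were, 1 of 6 in WT (0.0217%), 5 of 6 in MT194 (1.2%), 4 of 6 in MT486 (0.732%) and 6 of 6 in DMT (2.61%). With the replicate number as a block in the fit the counts were 6, 4, 6, 5 and 6, WT gaining Mcam, Sprr2g and Tmem171. The genes were chosen on this contrast, so nothing is read from these counts. Genes called lower in EV made up 3.24%. Both Ad-Cre libraries lay above both Ad-GFP libraries for 6 of 6 genes in EV (24.5% of all genes), 5 in WT (18.7%), 6 in MT194 (16.7%), 6 in MT486 (18.0%) and 6 in DMT (24.0%). The median log2 fold change of the 6 genes was 2.68 in EV, 1.35 in WT, 2.52 in MT194, 2.13 in MT486 and 2.52 in DMT, while the median over all genes was at most 0.014 from 0 in each. In bulk RNA, a larger number of cells of a kind and more RNA per cell cannot be told apart.

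**Figure D1:**
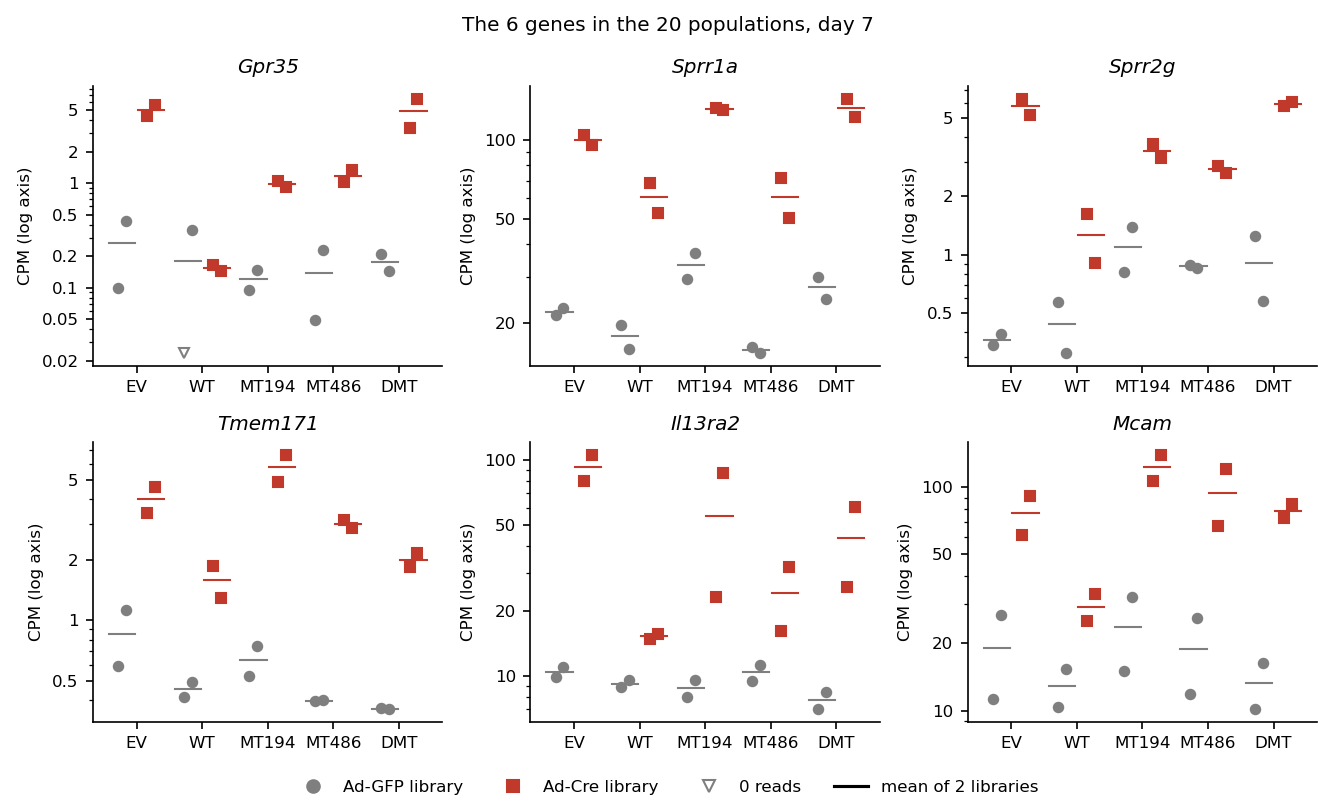
Level of each of the 6 genes in the 20 population libraries, in CPM on a log axis, by construct and virus. Points are the 2 replicates of a group. The Ad-Cre libraries of EV lie above the Ad-GFP libraries for all 6 genes, and for Gpr35 the WT-Cre libraries lie at the level of the Ad-GFP libraries.

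Per exon length, the EV-Cre level was highest for Sprr1a, at a mean of 124 RPKM (reads per kilobase of exon at equal depth), followed by Il13ra2 at 40.5, Mcam at 22.8, Sprr2g at 8.86, Tmem171 at 2.54 and Gpr35 at 1.04 RPKM. Gpr35 and Tmem171 were thus the least abundant, and their values rest on few reads.

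Gpr35 was nearly silent without Ad-Cre. In EV it had 4.37 and 5.65 CPM with Ad-Cre (97 and 120 reads) and 0.0983 and 0.439 CPM with Ad-GFP (2 and 9 reads), a log2 fold change of 4.19 ± 0.67 (SE, n = 2 per group). It was 3.49 without EV-GFP replicate 1 and 5.59 without EV-GFP replicate 2. In WT it had 0.166 and 0.143 CPM with Ad-Cre (4 and 3 reads) and 0 and 0.358 CPM with Ad-GFP (0 and 8 reads). The WT libraries overlapped, and all 4 lay at or below 8 reads. With MT194 the levels were 1.06 and 0.915 CPM with Ad-Cre against 0.0955 and 0.149 CPM with Ad-GFP. With MT486 they were 1.03 and 1.33 CPM against 0.0494 and 0.228 CPM. With DMT they were 3.36 and 6.46 CPM (88 and 162 reads) against 0.208 and 0.144 CPM. Summed over the replicates and set against depth, reads were 18.7 times as high with Ad-Cre in EV (95% exact interval 10.2 to 38.0), 7.76 times in MT194 (3.10 to 25.0), 9.0 times in MT486 (3.62 to 28.9) and 28.5 times in DMT (14.2 to 66.6), whereas WT gave 0.826 (0.255 to 2.61). These intervals cover counting error only and not the spread between replicates. As Gpr35 was picked on this contrast, they are not read as a test. In order of level, EV-Cre and DMT-Cre overlapped at the top, MT486-Cre and MT194-Cre overlapped below them and apart from both, and the remaining 6 groups overlapped at the bottom. A count of 3 reads corresponds to 0.103 to 0.167 CPM in the 35 libraries.

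Il13ra2 was the gene whose Ad-Cre level varied most between replicates of the mutants. In EV it had 79.7 and 105 CPM with Ad-Cre and 9.88 and 10.97 CPM with Ad-GFP, a log2 fold change of 3.15 ± 0.55 (SE, n = 2 per group). In WT the levels were 14.9 and 15.6 CPM against 8.85 and 9.59 CPM. Ad-Cre was thus above Ad-GFP by a smaller amount there. In MT194 they were 23.2 and 86.7 CPM against 7.97 and 9.54 CPM. In MT486 they were 16.1 and 32.1 CPM against 9.49 and 11.3 CPM. In DMT they were 25.8 and 60.7 CPM against 7.02 and 8.46 CPM. Replicate 2 exceeded replicate 1 in all 10 groups, and within replicate 1 the ratio of Ad-Cre to Ad-GFP in MT194 was 2.91, against 9.09 within replicate 2. The log2 fold change in MT194 was 3.31 without MT194-Cre replicate 1 and 1.41 without replicate 2, and that in DMT was 1.73 without DMT-Cre replicate 2. The Ad-Cre levels of EV, MT194, DMT and MT486 overlapped from each to the next in that order, and MT486-Cre lay apart from WT-Cre, 15.6 CPM being below 16.1 CPM.

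Mcam was above control with Ad-Cre in every construct, and least in WT. In EV it had 61.2 and 91.7 CPM with Ad-Cre and 11.3 and 26.8 CPM with Ad-GFP, a log2 fold change of 2.01 ± 0.51 (SE, n = 2 per group), which ran from 1.51 to 2.76 with 1 library left out and was highest without EV-GFP replicate 2. In WT the levels were 25.2 and 33.2 CPM against 10.4 and 15.4 CPM. In MT194 they were 107 and 140 CPM against 15.04 and 32.1 CPM. MT194-Cre was the highest group of all. In MT486 they were 66.7 and 121 CPM against 11.9 and 26.0 CPM. In DMT they were 73.0 and 83.8 CPM against 10.1 and 16.3 CPM. The groups with Ad-Cre other than WT overlapped from each to the next and lay apart from WT-Cre, which overlapped EV-GFP, MT194-GFP and MT486-GFP. As for Il13ra2, replicate 2 was higher in all 10 groups, with a median ratio of 1.55. Markers of pericytes and smooth muscle, cells that Mcam also marks, did not all move one way. Of 10 such markers 6 were tested, and Acta2 (smooth muscle actin, log2 fold change 2.93), Cnn1 (calponin, 2.28) and Tagln (transgelin, 2.22) were called higher in EV by edgeR's quasi-likelihood test (adjusted p = 2.02e-05, 0.000162 and 0.000266). Rgs5, a pericyte marker, had a log2 fold change of -1.45 in EV (adjusted p = 0.117, edgeR), and it was the 1 marker of the list called lower in MT194 and in DMT. The summed level of the list was 363 and 364 CPM in EV-Cre against 156 and 204 CPM in EV-GFP, 255 and 287 against 157 and 172 CPM in WT, and 491 and 528 against 172 and 259 CPM in MT194. It was 406 and 560 against 150 and 214 CPM in MT486, and 418 and 494 against 154 and 193.8 CPM in DMT, and Tagln or Acta2 was the most abundant gene of the list in every Ad-Cre population. Abcc9 of that list was under 0.2 CPM in every library, and the part of such cells in the Mcam levels was not tested.

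Sprr1a was present in every library and was above control in every construct, WT included. In EV it had 104 and 95.7 CPM with Ad-Cre and 21.4 and 22.7 CPM with Ad-GFP, a log2 fold change of 2.18 ± 0.20 (SE, n = 2 per group). In WT the levels were 68.5 and 52.6 CPM against 19.7 and 15.9 CPM, a log2 fold change of 1.77 ± 0.20. In MT194 they were 133 and 131 CPM against 29.4 and 36.9 CPM. In MT486 they were 71.4 and 50.2 CPM against 16.1 and 15.3 CPM. In DMT they were 144 and 122 CPM against 30.05 and 24.6 CPM. DMT-Cre and MT194-Cre overlapped at the top, EV-Cre lay apart below them, and MT486-Cre and WT-Cre overlapped below that. Replicate 2 was lower than replicate 1 in 8 of the 10 groups.

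Sprr2g lay at a far lower level, with a larger ratio than Sprr1a in EV and a smaller one in WT and MT486, in both replicates. In DMT and MT194 the order differed by replicate. In DMT the ratios of Sprr2g and Sprr1a were 4.63 and 4.80 in replicate 1, and 10.5 and 4.96 in replicate 2. In MT194 they were 4.57 and 4.54 in replicate 1, and 2.25 and 3.54 in replicate 2. In EV Sprr2g had 6.31 and 5.23 CPM with Ad-Cre and 0.344 and 0.390 CPM with Ad-GFP (7 and 8 reads), a log2 fold change of 3.95 ± 0.41 (SE, n = 2 per group). In WT the levels were 1.61 and 0.906 CPM against 0.569 and 0.314 CPM. Ad-Cre was above Ad-GFP here as well, at 39 and 19 reads against 11 and 7. In MT194 they were 3.71 and 3.13 CPM against 0.812 and 1.39 CPM. In MT486 they were 2.86 and 2.62 CPM against 0.889 and 0.854 CPM. In DMT they were 5.77 and 6.06 CPM against 1.25 and 0.576 CPM. The log2 fold change there was 2.73, and it was 3.35 without DMT-GFP replicate 1 and 2.24 without DMT-GFP replicate 2. DMT-Cre and EV-Cre overlapped at the top, and MT194-Cre, MT486-Cre and WT-Cre followed, each apart from the one above. No stretch of 50 bases of the exons of Sprr1a or Sprr2g recurred in another gene, so reads of this length tell both from their relatives, and the same held for Il13ra2, Mcam and Tmem171, while 0.683% of such stretches recurred for Gpr35.

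Tmem171 had its highest level with MT194 and not with EV. In EV it had 3.42 and 4.61 CPM with Ad-Cre and 0.590 and 1.12 CPM with Ad-GFP, a log2 fold change of 2.22 ± 0.31 (SE, n = 2 per group). In MT194 the levels were 4.88 and 6.64 CPM against 0.525 and 0.746 CPM, a log2 fold change of 3.17 ± 0.32. MT194-Cre lay apart from EV-Cre. In MT486 they were 3.13 and 2.88 CPM against 0.395 and 0.399 CPM. In DMT they were 1.83 and 2.15 CPM against 0.364 and 0.360 CPM. In WT they were 1.86 and 1.29 CPM against 0.414 and 0.493 CPM. DMT-Cre and WT-Cre overlapped, and both lay apart from MT486-Cre above them.

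**Figure D2:**
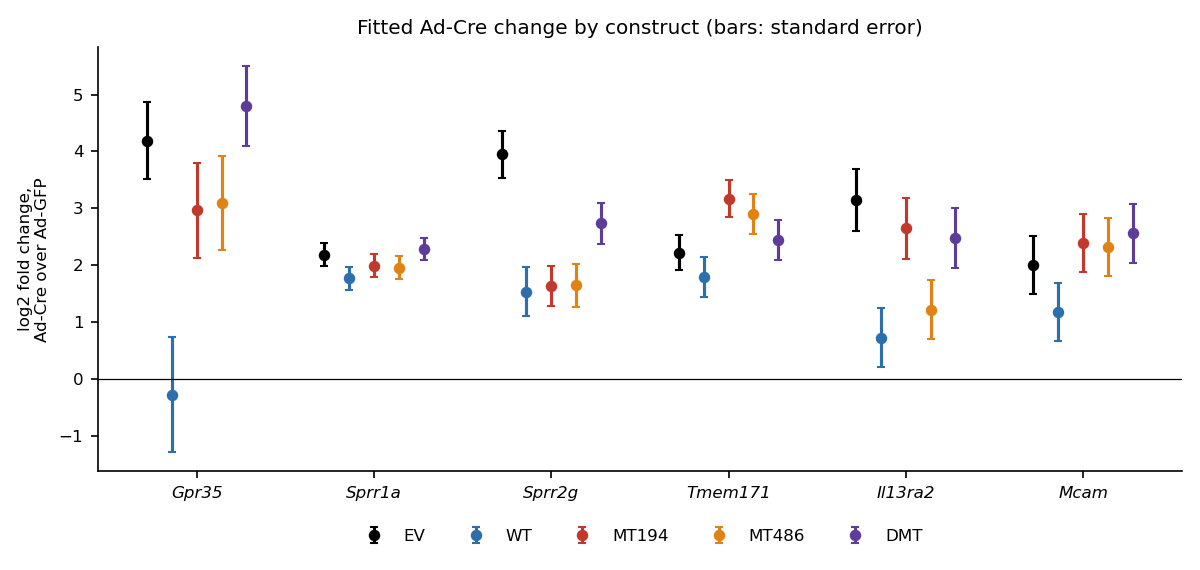
Log2 fold change of Ad-Cre against Ad-GFP with its standard error for each of the 6 genes in EV, WT, MT194, MT486 and DMT (n = 2 per group, edgeR). Gpr35 runs from -0.28 in WT to 4.79 in DMT, while Sprr1a stays between 1.77 and 2.29.

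The mutants were next compared with WT after Ad-Cre, which asks whether a construct that lost partner binding left these genes at the level of the wild-type protein. The genes were picked for a rise after Ad-Cre and not for this comparison, but it uses Ad-Cre libraries too. P-values between Ad-Cre groups are therefore not free of the choice. Sprr1a was left out of the tests against WT-Cre and Tmem171 out of those with MT194-Cre, because earlier results had singled them out there. The 3 comparisons share the WT-Cre libraries. The choice of the genes rested on Ad-Cre libraries, and Gpr35 passed the filter on low counts only through the Ad-Cre libraries of EV and the mutants. Its differences from WT-Cre are therefore given as values with no test, and it is left out of the counts here. In DMT-Cre it was higher by a log2 fold change of 4.93 ± 0.72 (SE, n = 2 per group), or 30.3 times by summed reads. The 95% exact interval of this ratio, 14.5 to 76.2, covers counting error only and is not read as a test. Of the other genes tested for DMT, Sprr2g passed, at 2.21 ± 0.35 (adjusted p = 0.00543 by Benjamini-Hochberg, edgeR), where 1.64% of all genes were called in either direction. Both DMT libraries were above both WT libraries for Sprr2g, Il13ra2 and Mcam, as for 24.0% of all genes, but not for Tmem171. Sprr2g still passed without WT-Cre replicate 1, and without replicate 2 its adjusted p by edgeR was 0.0846. Where 1 library of a group is left, it is assumed to vary like the other groups. Nelfb was also higher in DMT-Cre, at 169 and 208 CPM against 75.9 and 60.5 CPM in WT-Cre. It stood at 104 and 119 CPM in MT194-Cre and at 116 and 128 CPM in MT486-Cre. The part of Nelfb in the differences of the mutants from WT-Cre was not tested. Il13ra2 (1.50 ± 0.51, adjusted p = 0.149), Mcam (1.43 ± 0.49, adjusted p = 0.156) and Tmem171 (0.33 ± 0.30, adjusted p = 0.672) did not pass the edgeR test in DMT, while DESeq2 called Il13ra2 (1.51, adjusted p = 0.0445). The replicate number pairs the population libraries, and with the replicate as a block in the same edgeR fit Il13ra2 (1.40, adjusted p = 0.0260) and Mcam (1.45, adjusted p = 0.000468) also passed, where 4.88% of all genes did. Pericyte and smooth muscle markers were called higher against WT-Cre as well, 3 of the 6 tested in MT194, 1 in MT486 and 2 in DMT by edgeR, and their part in the Mcam differences was not tested.

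For MT194 none of Il13ra2, Mcam and Sprr2g passed against WT-Cre, where 0.876% of all genes were called by edgeR, although all 3 had an unadjusted p under 0.05, as 1675 of the 13805 genes did, and DESeq2 called all 3, out of 242 genes in all. Both MT194 libraries lay above both WT libraries for each of them, as for 19.1% of all genes. The log2 fold changes were 1.85 ± 0.52 for Il13ra2 (adjusted p = 0.116, edgeR), 2.08 ± 0.50 for Mcam (0.0624) and 1.43 ± 0.35 for Sprr2g (0.0666), and 2.63 ± 0.78 for Gpr35, given with no test. With the replicate block the 3 genes passed the edgeR test, where 3.25% of all genes did, at adjusted p = 0.0145 for Il13ra2, 6.35e-05 for Mcam and 0.00185 for Sprr2g. The calls for these genes thus changed with the block and with the tool. Without MT194-Cre replicate 1, Il13ra2 passed at a log2 fold change of 2.51 (adjusted p = 0.0282, edgeR), and without replicate 2 the log2 fold change was 0.61 and did not pass, the lone library being assumed to vary like the other groups. Sprr1a, given with no test, differed by 1.12 and Tmem171 by 1.86 on the log2 scale.

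For MT486 none of Il13ra2, Mcam, Sprr2g and Tmem171 passed against WT-Cre, where 0.0942% of all genes were called by edgeR. Mcam, Sprr2g and Tmem171 had an unadjusted p under 0.05, as 975 of the 13805 genes did, and DESeq2 called Mcam, 1 of 75 genes in all. Both MT486 libraries lay above both WT libraries for each of the 4, as for 17.5% of all genes. The differences were 1.69 ± 0.50 for Mcam (adjusted p = 0.310, edgeR), 1.11 ± 0.35 for Sprr2g (0.411), 0.93 ± 0.29 for Tmem171 (0.389) and 0.66 ± 0.51 for Il13ra2 (0.914), and 2.88 ± 0.77 for Gpr35, given with no test. With the replicate block, Mcam (adjusted p = 0.000985) and Sprr2g (0.0243) were called by edgeR, where 1.62% of all genes were. Tmem171 had an adjusted p of 0.0305 in that edgeR fit and a log2 fold change of 0.91, under the threshold, and Il13ra2 had 0.414. Sprr1a, given with no test, differed by 0.0061.

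MT486 and MT194 were compared directly to see whether the loss of NELFE binding and of NELFA/NELFC binding left different levels. Gpr35 is left out of the counts here too, as it passed the filter on low counts only through Ad-Cre libraries such as these. None of Il13ra2, Mcam, Sprr1a and Sprr2g passed, against 0.0652% of all genes by edgeR. Of these genes 2 had an unadjusted p under 0.05 (724 of all genes), and DESeq2 called 1 (42 of all genes). Sprr1a was lower in MT486-Cre by a log2 fold change of -1.12 ± 0.19 (SE, n = 2 per group). Its adjusted p was 0.0608 by edgeR, and 0.000341 with the replicate block. With the block Sprr1a was called, Il13ra2, Mcam and Sprr2g were not, and 0.848% of all genes were called. Il13ra2 differed by -1.19 ± 0.51 (adjusted p = 0.891, edgeR), and without MT194-Cre replicate 2, the library at 86.7 CPM, by 0.047. Mcam and Sprr2g differed by -0.39 ± 0.48 and -0.32 ± 0.33, and Gpr35, given with no test, by 0.25 ± 0.59.

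**Figure D3:**
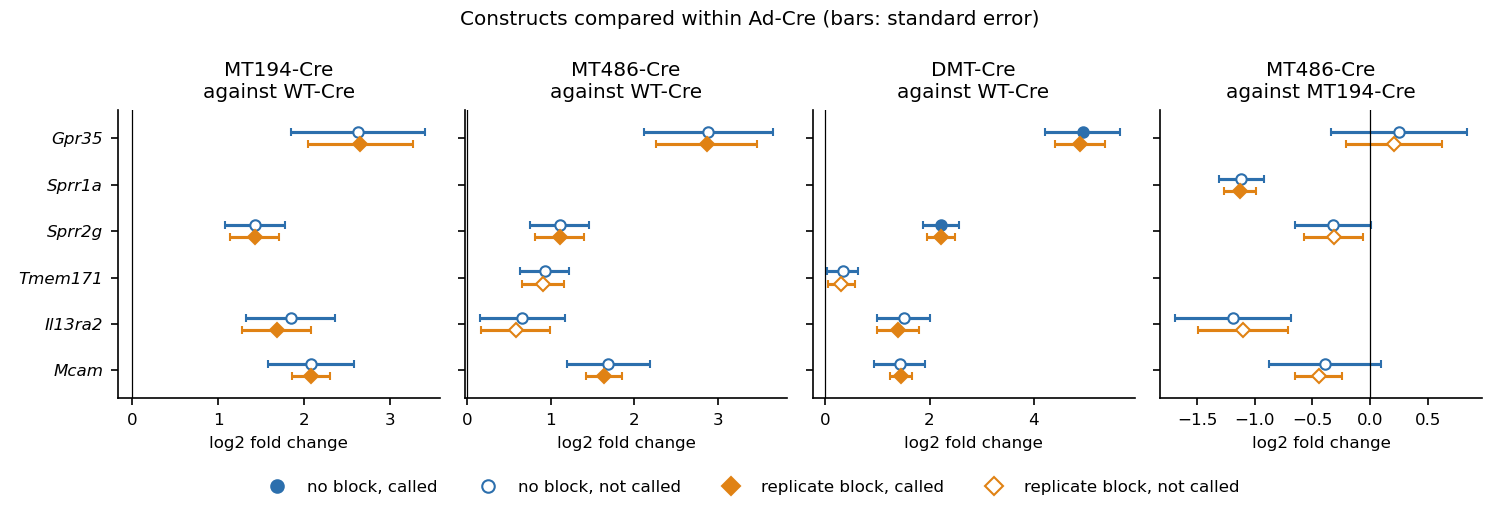
Log2 fold change with its standard error of the genes tested between constructs after Ad-Cre, without the replicate block (blue) and with it (orange). Filled points passed an adjusted p of 0.05 and a log2 fold change of 1, and apart from Gpr35, whose calls are not read, only Sprr2g in DMT against WT is filled without the block.

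The 6 genes were picked for a rise after Ad-Cre, so positive correlations over the populations follow from the choice and are given as values alone. On log2(CPM + 0.5), Pearson correlations between pairs ran from 0.703 (Gpr35 and Tmem171) to 0.921 (Tmem171 and Mcam) over the 20 libraries, which share the virus and the 2 experiments and are no independent points. In the 15 clones Sprr1a and Sprr2g kept a correlation of 0.867, after 0.909 in the populations. Tmem171 and Mcam gave 0.429 there, and Gpr35 and Mcam -0.579. Over the other pairs the clones ran from -0.33 (Gpr35 and Sprr1a) to 0.655 (Sprr2g and Il13ra2). These values are descriptions, and Gpr35 in the clones is at or near the counting floor.

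The genes most like each of the 6 over the 20 populations were sought by the same correlation among the 12335 genes whose mean reached 1 CPM. For Gpr35 they were Ankrd37 (0.966), Ccdc137 (0.953) and Ero1l (0.947), and for Il13ra2 Hbegf, a growth factor of the EGF family, H2-D1, a class I histocompatibility gene, and Ptx3, a pentraxin, each at 0.967. For Mcam they were genes of the cytoskeleton and cell surface, Actn4 (0.970), Cd44 (0.968) and Flna (0.968). For Sprr1a they were Bop1 (0.953), Mpi (0.952) and Klhl23 (0.95), and for Sprr2g Ccdc137 (0.956), Arl4d (0.956) and Mthfd1l (0.953). The genes nearest to Tmem171 were Dtna (0.945), Inhba (0.939), which encodes the activin beta A chain, and Pls3 (0.935). Over the 15 clones the 3 companions of Tmem171 still gave 0.741, 0.885 and 0.707, while Ankrd37, Ccdc137 and Ero1l gave -0.496, 0.412 and -0.341 with Gpr35, and Hbegf, H2-D1 and Ptx3 gave -0.499, 0.585 and 0.367 with Il13ra2. The companions of Mcam gave 0.393, 0.221 and 0.494 there, and those of the SPRR genes -0.199 to 0.316.

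In the populations the other 14 SPRR genes were few in reads, and some of them lay higher with Ad-Cre. Of the 6 that passed the filter on low counts, all but Sprr2b passed only through Ad-Cre libraries. Their values are therefore given with no test, and the intervals below are not read as one. Sprr3 had 37 and 28 reads in EV-Cre against 1 and 1 in EV-GFP, a ratio of 30.8 at equal depth (95% exact interval 8.19 to 260, counting error only). Sprr2j-ps had 27 and 23 against 3 and 2 reads. Sprr2h had 18 and 13 against 0 and 1 reads, a ratio of 29.4 (4.90 to 1197). In DMT, Sprr2h had 35 reads with Ad-Cre and 0 with Ad-GFP, at least 10.6-fold higher against a floor of 3 reads over the group. Sprr2k, named after its values were seen, differed by 2.47 ± 0.54 in MT194, 3.27 ± 0.75 in DMT and 1.04 ± 0.66 in EV on the log2 scale. It also differed by 2.38 ± 0.70 in WT and 2.38 ± 0.69 in MT486. Sprr2b, the most abundant of the 14 in the populations with a mean of 1.68 CPM, differed by -0.69 ± 0.47 in EV (adjusted p = 0.392, edgeR). Sprr2a1, Sprr2a2 and Sprr4 had 0 reads in all 35 libraries, and for Sprr2a1 and Sprr2a2 96.3% and 96.5% of the stretches of 50 bases recur in another gene, so that their reads could have been dropped or split. For Sprr2a3, Sprr2b, Sprr2e and Sprr2i that share was 61.1%, 14.1%, 10.2% and 12.5%, and their counts are uncertain to that degree.

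**Figure D4:**
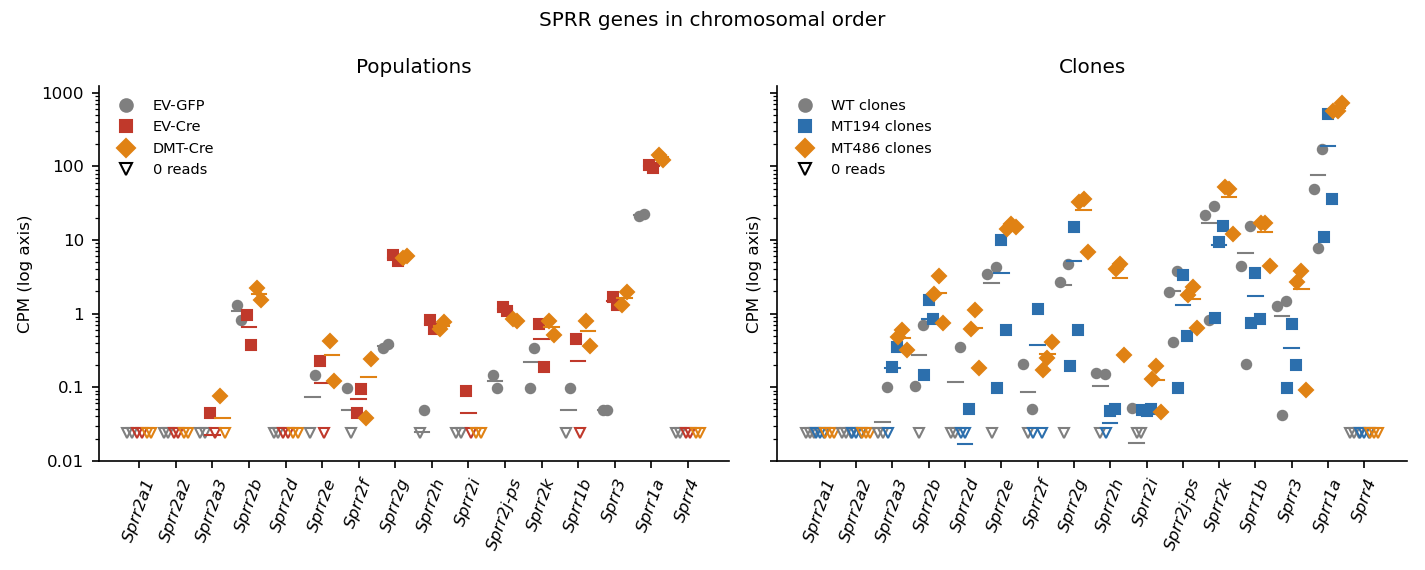
Level of the SPRR genes, in CPM on a log axis, in the order of their position on chromosome 3. The left panel shows the populations EV-GFP, EV-Cre and DMT-Cre, and the right panel the WT, MT194 and MT486 clones. In the populations, Sprr1a and Sprr2g stand above the rest of the cluster with Ad-Cre. In EV, Sprr3, Sprr2h and Sprr2j-ps lie higher with Ad-Cre while Sprr2b does not.

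AP-1 letters were held by the RefSeq promoters of 7 of the 10 Sprr2 genes, Sprr2g having no entry, and by that of Sprr1b. The windows of 40 bases around them are given to show how alike they are, with the first match in capitals. The first match base lies 193 to 198 bases before the start in the Sprr2 genes, and 111 bases before it in Sprr1b. Sprr2k has a second match 182 bases before its start, tgactca, which lies in the window and is left in lower case. The windows lie on chromosome 3 of GRCm38.p6, on the plus strand at chr3:92385471-92385510 (Sprr2h), chr3:92432370-92432409 (Sprr2k), chr3:92316494-92316533 (Sprr2b), chr3:92338931-92338970 (Sprr2d), chr3:92351934-92351973 (Sprr2e), chr3:92364974-92365013 (Sprr2f) and chr3:92407782-92407821 (Sprr2i), and on the minus strand at chr3:92438867-92438906 (Sprr1b).
Sprr2h: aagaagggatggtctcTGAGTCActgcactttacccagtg
Sprr2k: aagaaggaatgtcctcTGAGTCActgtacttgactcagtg
Sprr2b: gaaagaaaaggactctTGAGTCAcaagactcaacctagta
Sprr2d: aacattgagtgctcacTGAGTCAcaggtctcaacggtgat
Sprr2e: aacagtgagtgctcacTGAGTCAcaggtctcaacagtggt
Sprr2f: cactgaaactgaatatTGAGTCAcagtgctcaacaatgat
Sprr2i: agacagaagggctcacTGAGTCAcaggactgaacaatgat
Sprr1b: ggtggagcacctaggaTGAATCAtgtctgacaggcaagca
The letters were present in Sprr2h, in Sprr2b and in Sprr2d, which had 0 reads in the 20 populations. Sprr3 held none, and Sprr2a1, Sprr2a2 and Sprr2a3 held STAT6 letters in place of AP-1 letters.

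Of the 53 annotated genes within 200 kb of any of the 6, 18 genes outside the SPRR family were tested in EV. Of these edgeR called none, 3 lay at an unadjusted p under 0.05 and DESeq2 called 0. In MT194 both tools called 1 of the 18, Dusp28 near Gpr35, named after its values were seen, and in WT, MT486 and DMT both called 0, with 1 gene each at an unadjusted p under 0.05. The antisense gene 9430060I03Rik ends 275 bases before Gpr35 and was too low to test, and Aqp12 on its other side, 19943 bases away, had 1 read in the 20 populations. Cbl, the nearest gene on the other side of Mcam, differed by 0.27 (adjusted p = 0.358, edgeR), and Rnf26, 20952 bases from Mcam, by -0.43 (adjusted p = 0.0427), below the fold threshold. Beside Il13ra2, Lrch2 differed by -0.25 (adjusted p = 0.331, edgeR), and Htr2c is the neighbour on its other side. Beside Tmem171, Fcho2 differed by 0.32 (adjusted p = 0.251, edgeR), and Tmem174 had 0 reads. Sprr1a lies between Sprr3 and Sprr4, and Sprr2g between Sprr2f and Sprr2h.

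The other genes of the pathways of the 6 are set against all genes in EV, where 3.28% were called higher and 3.24% lower, and with lists this short nothing is read from their counts. Of 29 other genes of the cornified envelope only 3 could be tested and none was called by edgeR, Ppl (periplakin) being the most abundant at 19.6 CPM. Of 13 tested genes of interleukin-4 and interleukin-13 signaling none was called, with a median log2 fold change of -0.11, and the most abundant was Stat3, a transcription factor of cytokine signaling, at 449 CPM. None of 18 genes for ligands and couplers of Gpr35 was called (median -0.21, most abundant Gnai2, an inhibitory G protein subunit, at 559 CPM), and none of 14 partners of Mcam (median -0.17, most abundant Lgals1, galectin-1, at 779 CPM). At an unadjusted p under 0.05 these 4 lists held 1, 2, 6 and 3 genes, and DESeq2 called 0, 0, 1 and 0. Among 15 tested adhesion molecules of the immunoglobulin family, Pvr rose (1.53 ± 0.43, adjusted p = 0.0334, edgeR) and Vcam1 fell (-1.77 ± 0.36, adjusted p = 0.00638).

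Many markers of keratinocytes, endothelium and blood cells were low in the populations. Of 17 keratinocyte and epithelial markers, 10 were under 0.2 CPM in every population, among them Epcam, Krt5, Krt8 and Krt18, and Krt14, Krt1 and Dsg1a had 0 reads. Their summed level was 20.7 to 28.5 CPM over the 20 populations, and the 1 call in EV was Perp, which fell (-1.18 ± 0.27, adjusted p = 0.0121, edgeR). DESeq2 also called Krt19 in EV, which was 1.22 ± 0.43 higher by edgeR (adjusted p = 0.0855), and edgeR called it higher in DMT. Of the endothelial markers Cdh5, Tie1 and Emcn were under 0.2 CPM, and the 8 summed to 1.08 to 3.86 CPM, with 0 of 3 tested called by edgeR, 1 at an unadjusted p under 0.05 and 0 by DESeq2. In EV the 8 summed to 2.97 and 3.30 CPM with Ad-Cre against 1.08 and 2.10 CPM with Ad-GFP. The median log2 fold change of the 3 tested was 1.37 in EV and 0.15 to 0.53 in the other constructs. The part of endothelial cells in the Mcam levels was not tested. Ptprc, Adgre1, Itgam and Cd3e of macrophages and lymphocytes were under 0.2 CPM too, while Cd14, a co-receptor that fibroblasts also carry, was the most abundant of that list at 336 CPM. Of the fibroblast markers S100a4 fell (-1.47 ± 0.24, adjusted p = 0.00171, edgeR).

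The clones show the levels of the same genes in cell lines each grown from 1 clone after Ad-Cre. Before averaging, replicate clones were compared. MT486 clones 1 and 2 were far closer than any other pair of clones, with a mean chi-square of 5.06 per gene, where sampling noise alone gives 1, and the next pair, WT clones 1 and 3, gave 32.4. They were counted as 2 clones. Their value above 1 cannot decide this, since separate cultures can exceed sampling noise: the populations EV-GFP replicate 1 and WT-GFP replicate 1 gave 3.94. Whether both were grown from the same cells was not tested, so the n of 3 for the MT486 clones may be too high. Clones and populations were normalized separately.

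**Figure D5:**
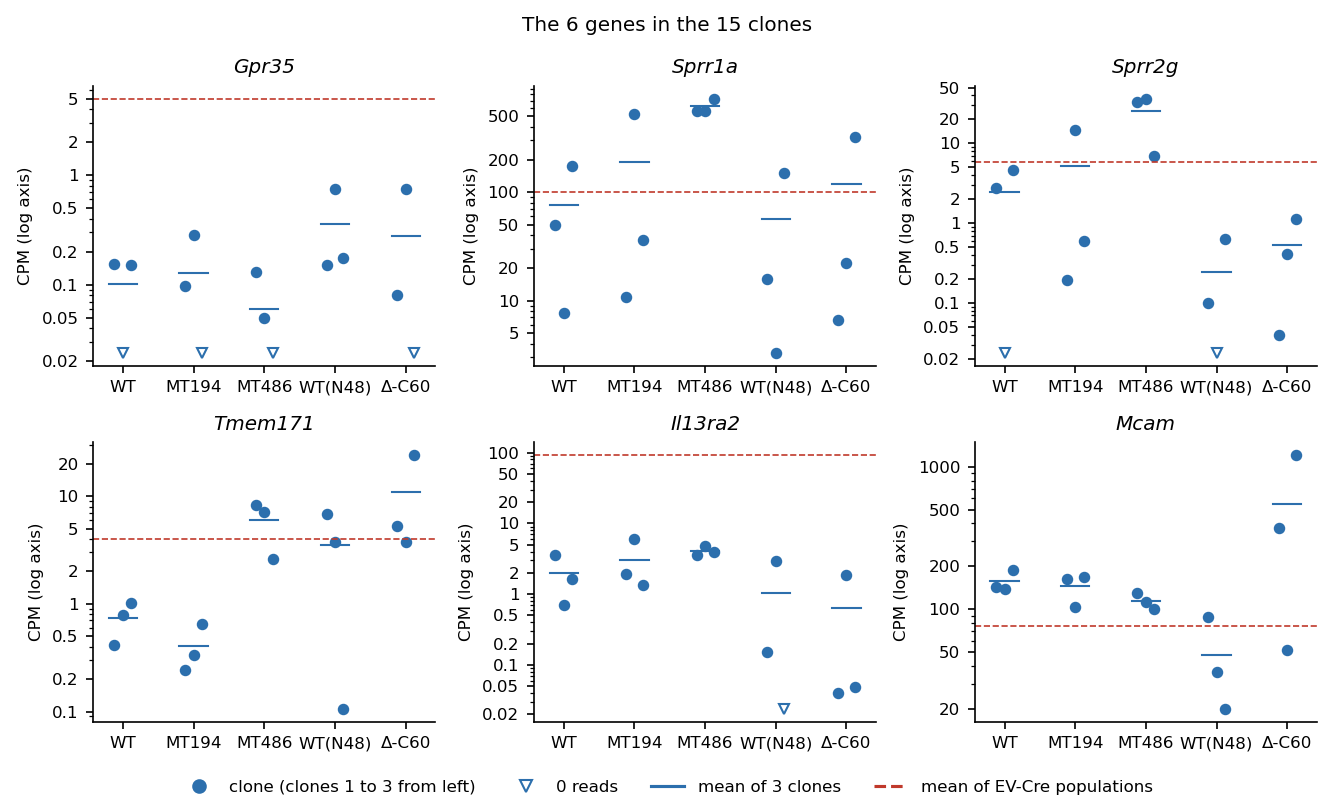
Level of each of the 6 genes in the 15 clones, in CPM on a log axis, with the mean of each group as a bar and the mean of the EV-Cre populations, normalized separately, as a dashed line. Open triangles mark 0 reads. Sprr1a lies at 561 CPM or above in all 3 MT486 clones, and Gpr35 and Il13ra2 lie below the EV-Cre line in all 15 clones.

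Gpr35 was at or near the counting floor in the clones, from 0 to 0.749 CPM (0 to 20 reads), and was too low to be tested. Il13ra2 was also low, at 3.61, 0.705 and 1.62 CPM in WT clones 1 to 3, 1.91, 5.93 and 1.35 in MT194, and 3.56, 4.78 and 3.96 in MT486. In WT(N48) it had 0.152, 2.95 and 0 CPM and in Δ-C60 0.0401, 1.84 and 0.0493 CPM. The highest of these 15 values, 5.93 CPM, lay under the lowest Ad-GFP population, at 7.02 CPM. For a gene at 0 reads, a floor of 3 reads allows up to 0.103 to 0.167 CPM.

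Sprr1a ranged from 3.30 to 728 CPM over the clones. WT clones had 49.5, 7.76 and 173 CPM, MT194 clones 10.9, 522 and 35.9 CPM, and MT486 clones 563, 561 and 728 CPM. WT(N48) clones had 15.9, 3.30 and 151 CPM, and Δ-C60 clones 6.62, 22.2 and 326 CPM. The 3 MT486 clones lay above all other clones, the nearest being MT194 clone 2 at 522 CPM, and the other 4 groups overlapped. No share of all genes set apart in this way is given, and MT486 clones 1 and 2 may not be separate. Nothing is therefore read from this order. Sprr2g was similar in part, with 32.7, 36.2 and 6.86 CPM in MT486, 2.73, 0 and 4.67 in WT, and 0.196, 14.8 and 0.601 in MT194. In WT(N48) it had 0.101, 0 and 0.631 CPM and in Δ-C60 0.0401, 0.412 and 1.14 CPM. Among the other SPRR genes, named after their values were seen, Sprr2k (51.9 CPM) and Sprr1b (17.3 CPM) were highest in MT486 clone 1 and Sprr2e (16.6 CPM) in MT486 clone 2, whereas Sprr2j-ps was highest in WT clone 3 (3.81 CPM) and Sprr2f in MT194 clone 2 (1.14 CPM). The summed level of the 17 keratinocyte and epithelial markers was 19.7 to 211 CPM in the clones. It was highest in Δ-C60 clone 3, followed by WT(N48) clone 3 at 118 CPM, each the clone of its group with the most Sprr1a, as was MT194 clone 2 at 41.9 CPM. In WT the order was the opposite, with 20.9 CPM of these markers in clone 3, the highest in Sprr1a, and 26.7 CPM in clone 2, the lowest. In the MT486 clones it was 35.2, 38.7 and 39.0 CPM. Perp alone gave 105 CPM of the sum in Δ-C60 clone 3 and 97.6 CPM in WT(N48) clone 3, and Trp63 gave 23.5 CPM in MT194 clone 2. Of the 17 markers, 9 were under 0.2 CPM in every clone. The part of such cells in the SPRR levels was not tested.

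Tmem171 stood at 8.34, 7.14 and 2.62 CPM in MT486 clones and at 0.412, 0.788 and 1.01 CPM in WT clones. MT194 clones had 0.245, 0.332 and 0.651 CPM, the lowest group, although MT194-Cre was the highest of the populations. WT(N48) clones had 6.80, 3.75 and 0.105 CPM and Δ-C60 clones 5.26, 3.75 and 24.1 CPM. Mcam was present in all clones, at 144, 139 and 188 CPM in WT, 162, 103 and 169 in MT194, and 131, 113 and 101 in MT486. In WT(N48) it had 87.8, 36.4 and 19.9 CPM and in Δ-C60 372, 51.6 and 1209 CPM. The summed level of the pericyte and smooth muscle markers was 177 to 5507 CPM in the clones, highest in Δ-C60 clone 3, the clone with the most Mcam, and 2396 CPM in WT(N48) clone 1. Its part in the Mcam levels was not tested.

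None of the 5 genes that could be tested passed in any of the 6 comparisons between clones, by edgeR with the same rule. Genes called in either direction made up 1.47% in MT194 against WT, 0.0% in MT486 against WT, 1.47% in WT(N48) against WT, 0.0% in Δ-C60 against WT(N48), 3.24% in MT194 against WT(N48) and 0.272% in MT486 against WT(N48). Of the 5 genes, 0, 1, 1, 1, 2 and 1 had an unadjusted p under 0.05 in these 6 comparisons, and DESeq2 called 0, 0, 0, 1, 1 and 1. Over all 13223 genes these numbers were 2796, 1176, 2775, 1540, 3407 and 1991 by unadjusted p and 496, 121, 675, 149, 912 and 411 by DESeq2. For MT486 against WT, Tmem171 differed by 3.02 ± 1.08 (SE, n = 3 per group, adjusted p = 0.381, edgeR), Sprr1a by 3.01 ± 1.75 (adjusted p = 0.696) and Mcam by -0.45 ± 0.76 (adjusted p = 0.932). For Δ-C60 against WT(N48), both in pBabe, Mcam differed by 3.50 ± 0.84 (adjusted p = 0.201, edgeR), and without Δ-C60 clone 2 it passed at 4.04 (adjusted p = 0.0125). The difference ran from 2.14 without Δ-C60 clone 3 to 4.27 without WT(N48) clone 1. For MT194 against WT(N48), Tmem171 differed by -3.10 ± 1.11 (adjusted p = 0.105, edgeR), and without WT(N48) clone 3 it passed at -3.66 (adjusted p = 0.0184). Sprr2g, with 1 clone of WT(N48) at 0 reads, was fitted 4.28 ± 1.83 higher in MT194 (adjusted p = 0.161, edgeR) and 6.56 ± 1.98 higher in MT486 (adjusted p = 0.156), and the fitted values depend on the prior count. The vector also differs between the pLenti clones and WT(N48), so construct and vector cannot be told apart there.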

How the data were processed

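The 35 libraries were TruSeq stranded poly(A) libraries read as single reads of 50 bases. The deposited files hold raw read counts for 24421 genes. To make them, the authors aligned reads to mm10 with Bowtie2, sorted them with SAMtools, skipped alignments with a mapping quality under 30 and assigned reads to genes with HTSeq. The counts were not normalized, and the authors ran DESeq2 for their own tests. The strand setting of the counting and the tool versions are not given in the sources used here. Reads on no gene (11.7% to 21.3% of a population library and 9.14% to 12.0% of a clone library) were left out.

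From the counts, edgeR 4.0.16 in R 4.3.3 gave TMM-normalized CPM, log2 fold changes and quasi-likelihood p-values, separately for the 20 populations and the 15 clones, with filterByExpr (13805 and 13223 genes kept), 1 mean per group and robust dispersions. The Benjamini-Hochberg adjustment ran over all genes kept, and calls needed an adjusted p below 0.05 with a change of more than 1 on the log2 scale. The standard error is the fold change divided by the square root of F. The steps were tested on simulated data. Same-numbered population libraries deviated together in 45 of 45 pairs of groups (correlations 0.517 to 0.824), and the study describes 2 independent experiments, so the replicate block was fitted as well. P-values of the clones measure the spread between clones, which share only a number across constructs.

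The 6 genes, the gene lists and the tests were chosen with earlier results of these data known. Named are the 6 genes, Nelfb, listed genes called in EV (up to 6 per list) or else the most abundant, the 3 genes most correlated with each and the nearest neighbours. Alternatives were DESeq2 1.42.0, its size factors, no filter on low counts, the replicate block, and each replicate left out. Sequences are from RefSeq on GRCm38.p6 and positions from GENCODE.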

Additional observations from a re-analysis of the deposited data

How the results depend on the processing

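The median log2 fold change of the 6 genes after Ad-Cre kept its sign in every construct under every alternative run. Leaving out 1 library at a time, it ran from 2.59 to 2.99 in EV, 2.10 to 2.91 in MT194 and 1.92 to 2.41 in MT486, and the replicate block gave 2.48 in MT194. Against WT-Cre, with Gpr35 left out, DESeq2 and the block each called Il13ra2, Mcam and Sprr2g in MT194. In MT486 DESeq2 called Mcam, and the block called Mcam and Sprr2g. In DMT the block called Il13ra2, Mcam and Sprr2g. With 1 library left out, the log2 fold change of Il13ra2 ran from 0.61 to 2.51 in MT194 and that of Sprr2g from 1.85 to 2.70 in DMT. In MT486 against MT194 both DESeq2 and the block called 1. In the clones DESeq2 called 1 gene each in Δ-C60, MT194 and MT486 against WT(N48), and with 1 clone left out the first 2 gave 0 to 1. The replicate block called 1 other gene of the cornified envelope. For ligands and couplers of Gpr35, DESeq2, the block and no filter each called 1, and leaving out 1 library 0 to 1. Each library left out in EV removed 1 of the 2 adhesion calls, leaving 1.

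Directions turned for single genes. With 1 library left out, Gpr35 in WT-Cre against WT-GFP ran from -1.18 to 4.82, the latter fitted against a lone library at 0 reads and set by the prior count, Sprr1a in MT486-Cre against WT-Cre from -0.27 to 0.24 and Il13ra2 in MT486-Cre against MT194-Cre from -1.85 to 0.047. In MT194 against WT clones, Sprr1a ran from -1.71 to 2.72, Sprr2g from -2.61 to 1.94, Il13ra2 from -0.27 to 1.39 and Mcam from -0.25 to 0.077, and the replicate block gave -0.22 for Il13ra2. In WT(N48) against WT clones, Sprr1a ran from -3.02 to 0.99. In Δ-C60 against WT(N48), Sprr1a ran from -1.99 to 3.62, Sprr2g from -0.20 to 3.21 and Il13ra2 from -4.35 to 3.15, and in MT194 against WT(N48) Sprr1a ran from -1.29 to 4.32. Leaving out WT clones 1 and 3, an alternative chosen after seeing the data, gave 0.045 for Mcam in MT194 against WT, and 2.87 for Sprr1a, 5.58 for Sprr2g and 0.52 for Il13ra2 in WT(N48) against WT, where the lone clone left is assumed to vary like the others and Sprr2g had 0 reads in it. Other than by fewer samples, the cause was not tested. Same-numbered clones deviated together in 4 of 30 pairs, so they share only a number.

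Calls over all genes moved most. By edgeR, by DESeq2 and by edgeR with the block they were 3, 28 and 120 in WT with Ad-Cre, 343, 485 and 744 in MT194, 201, 357 and 586 in MT486 and 733, 868 and 1215 in DMT. Between constructs they were 121, 242 and 449 (MT194 against WT), 13, 75 and 223 (MT486 against WT), 226, 330 and 673 (DMT against WT) and 9, 42 and 117 (MT486 against MT194). In the clones they were 117 higher and 77 lower, 496 and 41 (MT194 against WT, 119 without the filter and 1 without WT clones 1 and 3), 0, 121 and 0 (MT486 against WT, 1 and 1), 124 higher and 70 lower, 675 and 84 (WT(N48) against WT, 2 without WT clones 1 and 3), 0, 149 and 0 (Δ-C60 against WT(N48)), 429, 912 and 254 (MT194 against WT(N48)) and 36, 411 and 19 (MT486 against WT(N48)). DESeq2's size factors in edgeR left each count within 1.5 times. With 1 library left out, edgeR called 490 to 692 genes in EV in place of 900, 0 to 1 in WT, 149 to 231 in MT194, 67 to 107 in MT486 and 353 to 529 in DMT. Against WT-Cre it called 17 to 69 in MT194, 0 to 1 in MT486 and 53 to 108 in DMT, and 1 to 6 in MT486 against MT194. In the clones the ranges were 0 to 230 (MT194 against WT), 0 to 13 (MT486 against WT), 10 to 446 (WT(N48) against WT), 0 to 216 (Δ-C60 against WT(N48)), 50 to 902 (MT194 against WT(N48)) and 2 to 85 (MT486 against WT(N48)). The shares of all genes called move with these counts. Gpr35 in MT486 after Ad-Cre ran from 2.35 to 4.43, and Mcam from 1.94 to 3.03 in MT194 and 1.82 to 2.98 in MT486. Gpr35 is limited by depth in the clones and with WT.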
